A study of Mus musculus with 6 samples.

Results

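The regions described here are the ATAC-seq peaks that lie inside very long genes, away from any gene end, in undifferentiated mouse embryonic stem cells. A peak was counted when the whole interval lay on chromosomes 1 to 19, inside the body of a protein-coding RefSeq gene of 200 kb or longer, and over 1 kb from the ends of every annotated gene of any biotype. Of 75108 peaks on these chromosomes, 6956 met this rule (9.26%, exact binomial 95% interval 9.05 to 9.47). The rule used positions only, and no height entered it. Because the whole interval had to meet it, a wider peak was more readily left out. By summit position alone, 7062 peaks met it. The genes concerned, called long genes below, numbered 945 of 20665 protein-coding genes (4.57%) and had lengths of 200.1 to 2271 kb with a median of 326 kb. Of the 6956 peaks, 58 lay in more than 1 long gene, so that peaks and genes formed 7078 pairs.

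ATAC-seq uses the Tn5 transposase to insert sequencing adapters into accessible DNA of isolated nuclei, and a peak is an interval in which insertions pile up above the local background. The cells were E14, an established mouse embryonic stem cell line, with a NSD1-dTAG knock-in, a fusion through which the degrader dTAG-13 removes NSD1, a methyltransferase of histone H3 lysine 36. The series has 6 groups of 1 sample, all with the knock-in: stem cells in 2i/LIF medium exposed to 500 nM dTAG-13 for 0, 1, 6 or 24 h, and embryoid bodies grown for 6 days, either with dTAG-13 or without. The peaks below are those of the untreated 0 h library. The remaining 5 samples were not analysed here, so every statement describes 1 library, carries no replicate check, and says nothing of the loss of NSD1.

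Very long genes consist almost wholly of introns, and accessible sites within them are typically enhancers, binding sites of architectural proteins, or promoters of shorter transcripts that begin inside the gene. Many of the longest mammalian genes code for adhesion molecules, receptors and channels of neurons, cells in which these genes are transcribed strongly, while in pluripotent cells most are weakly transcribed or silent. Long genes of chromatin regulators, signalling enzymes and cytoskeletal proteins are transcribed in many cell types.

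The height of a peak is given as its summit pileup, a whole number of overlapping reads or fragments that was recovered from the authors' values. Peaks inside long genes had pileups of 6 to 1091, widths of 196 to 5505 bp and fold enrichments over the local background of 2.15 to 39.7, the last being the authors' own value. Where the local background was at its genome-wide floor of 1.30, no pileup below 6 was listed, so that weaker sites were not detectable. As a check of the labelled cell type, 7 of 8 stem cell markers had a peak at a gene end, as 68.1% of all protein-coding genes on chromosomes 1 to 19 did, so the count itself says little of cell type. Their median pileup, with Esrrb at 0, was 99, among them Pou5f1 with a pileup of 152 and Sox2 with 119, whereas Esrrb had none. Of the blood markers 0 of 3 and of the liver markers 0 of 3 had one. Of the fibroblast markers 3 of 5 and of the neuron markers 4 of 5 had one, with median pileups over each list of 7 and 49. Whether a small share of other cells contributed was not tested.

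Among the sites inside long genes, annotated internal starts are the ones whose sequence can be shown, and they are printed here because the start sequences with a peak and those without differ in the density of CpG dinucleotides, as given further below. Each is the 250 bases before an annotated start that lies over 1 kb from every gene end, taken from RefSeq for GRCm38.p6, read 5′ to 3′ on the strand of the gene, with each CpG in capitals. The upper 6 sequences overlapped a peak inside their gene. Hdac4, a class II histone deacetylase, has the tallest of all internal starts of long genes (chr1:92180342-92180591, minus strand, 23 CpGs), with a pileup of 198. Rps6ka2, a ribosomal S6 kinase, follows with 160 (chr17:7169865-7170114, plus strand, 19 CpGs). Gphn, the scaffold of inhibitory synapses and an enzyme of molybdenum cofactor synthesis, had 146 (chr12:78226405-78226654, plus strand, 34 CpGs). Zfhx3, a zinc finger and homeobox factor, had 72 (chr8:108714394-108714643, plus strand, 18 CpGs). Foxp1, a forkhead factor, had 69 (chr6:99028299-99028548, minus strand, 34 CpGs). Cntnap2, a neurexin-like adhesion molecule, had 66 over a start with only 3 CpGs (chr6:47244146-47244395, plus strand). The last 3 starts had no peak. They belong to Rbfox1, a neuronal splicing regulator (chr16:7069585-7069834, plus strand, 6 CpGs), to Ptprg, a receptor tyrosine phosphatase (chr14:12189693-12189942, plus strand, 6 CpGs), and to Gse1 (chr8:120488616-120488865, plus strand, 13 CpGs).
Hdac4: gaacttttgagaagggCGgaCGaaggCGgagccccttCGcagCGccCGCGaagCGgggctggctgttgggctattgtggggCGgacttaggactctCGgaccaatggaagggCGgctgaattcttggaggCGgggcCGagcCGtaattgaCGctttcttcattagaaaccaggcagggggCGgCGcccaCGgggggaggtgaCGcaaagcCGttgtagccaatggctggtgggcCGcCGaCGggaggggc
Rps6ka2: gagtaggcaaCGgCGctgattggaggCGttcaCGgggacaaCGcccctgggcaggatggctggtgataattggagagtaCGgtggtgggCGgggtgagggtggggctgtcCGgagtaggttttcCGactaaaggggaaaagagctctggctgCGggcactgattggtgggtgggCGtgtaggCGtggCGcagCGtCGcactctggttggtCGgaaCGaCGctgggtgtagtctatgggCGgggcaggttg
Gphn: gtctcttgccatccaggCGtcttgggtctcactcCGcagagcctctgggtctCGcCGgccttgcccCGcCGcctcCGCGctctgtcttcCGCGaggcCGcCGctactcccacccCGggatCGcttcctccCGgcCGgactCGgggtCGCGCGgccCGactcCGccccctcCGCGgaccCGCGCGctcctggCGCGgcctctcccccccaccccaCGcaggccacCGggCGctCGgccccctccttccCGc
Zfhx3: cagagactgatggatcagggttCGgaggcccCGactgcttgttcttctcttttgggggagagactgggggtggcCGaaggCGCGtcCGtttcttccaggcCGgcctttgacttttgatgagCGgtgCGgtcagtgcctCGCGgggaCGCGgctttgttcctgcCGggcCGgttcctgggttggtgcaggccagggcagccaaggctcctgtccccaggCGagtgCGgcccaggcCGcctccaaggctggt
Foxp1: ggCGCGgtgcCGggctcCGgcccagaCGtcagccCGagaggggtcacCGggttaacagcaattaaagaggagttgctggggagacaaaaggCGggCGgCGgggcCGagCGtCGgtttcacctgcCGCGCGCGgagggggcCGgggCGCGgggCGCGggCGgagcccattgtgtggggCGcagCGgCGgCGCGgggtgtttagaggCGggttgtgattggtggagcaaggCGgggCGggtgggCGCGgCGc
Cntnap2: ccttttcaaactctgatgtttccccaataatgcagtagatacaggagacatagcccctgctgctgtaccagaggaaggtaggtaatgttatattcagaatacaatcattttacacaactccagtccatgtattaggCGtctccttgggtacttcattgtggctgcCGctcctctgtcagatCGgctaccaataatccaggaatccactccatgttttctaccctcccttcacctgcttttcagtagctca
Rbfox1: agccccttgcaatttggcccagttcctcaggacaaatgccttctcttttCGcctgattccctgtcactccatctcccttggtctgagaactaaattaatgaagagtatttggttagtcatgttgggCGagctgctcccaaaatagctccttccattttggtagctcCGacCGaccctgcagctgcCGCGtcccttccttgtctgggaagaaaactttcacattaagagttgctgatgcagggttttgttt
Ptprg: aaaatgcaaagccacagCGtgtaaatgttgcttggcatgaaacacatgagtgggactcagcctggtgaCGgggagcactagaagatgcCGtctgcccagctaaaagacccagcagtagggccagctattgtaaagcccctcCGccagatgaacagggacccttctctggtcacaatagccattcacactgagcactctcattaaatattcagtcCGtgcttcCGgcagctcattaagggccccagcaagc
Gse1: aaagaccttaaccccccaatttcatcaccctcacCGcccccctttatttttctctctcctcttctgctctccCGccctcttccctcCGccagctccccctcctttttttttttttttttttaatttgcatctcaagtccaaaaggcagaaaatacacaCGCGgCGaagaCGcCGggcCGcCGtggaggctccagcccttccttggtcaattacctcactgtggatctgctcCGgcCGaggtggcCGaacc

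Peaks were sparse in long genes relative to shorter ones. Per Mb of sequence over 1 kb from gene ends, long genes held 17.8 peaks (exact Poisson 95% interval 17.4 to 18.2), against 36.8 (36.1 to 37.4) in genes of over 50 and under 200 kb and 46.9 (45.9 to 47.8) in genes of 50 kb or less. The density in long genes was thus 0.380 times that of genes of 50 kb or less (exact interval 0.368 to 0.392). Sequence between genes, 10 to 100 kb from the nearest, held 16.9 peaks per Mb (16.6 to 17.3), and sequence over 100 kb from any gene held 6.60 (6.25 to 6.96). Long genes stood at 1.05 times the nearer intergenic sequence (1.02 to 1.08), a ratio that was 0.866 when long meant 300 kb or more. They stood at 2.70 times the sequence over 100 kb from genes (2.55 to 2.86). The peaks covered 0.904% of the sequence of long genes, against 2.37% in genes of 50 kb or less. These intervals cover counting error only, and neighbouring peaks are not independent. The lower density of long genes against short ones held on every setting tried, between 0.304 and 0.439 times.

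**Figure D1:**
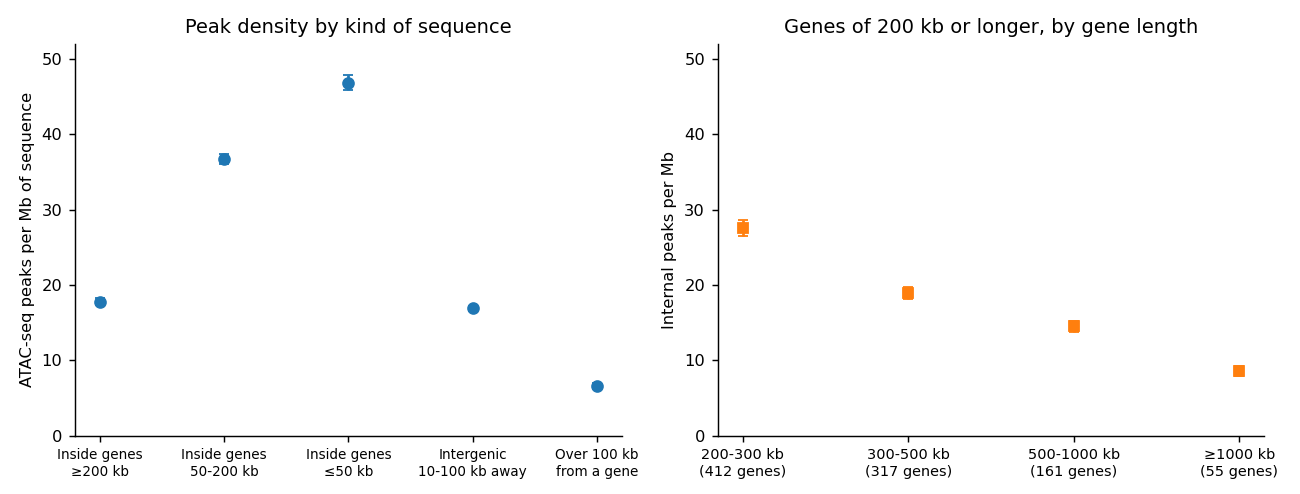
ATAC-seq peaks per Mb of sequence over 1 kb from gene ends (vertical axes), on the left for sequence inside long genes, inside shorter genes and between genes, and on the right for long genes in 4 length classes; bars are exact Poisson 95% intervals. Long genes, at 17.8 peaks per Mb, sit beside intergenic sequence at 16.9 and far below genes of 50 kb or less at 46.9, and among long genes the density is lower in each longer class, from 27.6 to 8.61.

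In height the peaks of long genes resembled other peaks away from gene ends. Their median pileup was 18 (quartiles 12 and 32), against 19 in genes of over 50 and under 200 kb, 22 in genes of 50 kb or less, 19 in nearby intergenic sequence and 17 over 100 kb from genes. A pileup of 50 or more was reached by 824 of them (11.8%, 11.1 to 12.6), against 22.3% of all peaks on chromosomes 1 to 19, which include the peaks at gene ends. The shares were 12.4% and 16.4% in genes of over 50 and under 200 kb and of 50 kb or less, and 12.3% and 10.7% in the nearer and the farther intergenic sequence. The median width was 429 bp in long genes and between 412 and 463 bp in the other sets.

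The order by fold enrichment, which divides by the local background, was different. The median fold was 6.72 (6.52 to 6.95) in long genes and 6.12 (6.08 to 6.22) in genes of 50 kb or less, although the pileup was lower in long genes. The median local background under the peaks was 1.49 in long genes and 2.42 in genes of 50 kb or less. In 44.0% of long-gene peaks it stood at the genome-wide value of 1.30, against 20.8% in genes of 50 kb or less and 66.6% over 100 kb from genes. The lowest pileup that can be listed is higher where the local background is higher, so low sites were less detectable in short genes than in long ones.

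Among long genes the density was lower with every step in length. The 412 genes of 200 to 300 kb held 27.6 peaks per Mb (26.5 to 28.6), the 317 of 300 to 500 kb held 18.9 (18.1 to 19.7), the 161 of 500 to 1000 kb held 14.5 (13.8 to 15.3), and the 55 of 1000 kb and over held 8.61 (7.95 to 9.31). The count per gene went the other way, with medians of 4, 5, 7 and 11 peaks. Across the 945 genes, length and peaks per Mb had a Spearman correlation of -0.267, a description over genes that share 1 library. On the 2 sides of the threshold, genes of 200 to 210 kb held 24.6 peaks per Mb (21.8 to 27.6, 59 genes) and genes of 190 to 200 kb held 31.2 (28.2 to 34.4, 68 genes). Of the 5 genes just over the threshold, Plcxd3, Pcbp3, Pbx3, Tspear and Dnah12, the counts were 3, 7, 2, 3 and 5 peaks. Of the 5 just under it, Atp9b, Sergef, Morc1, Clec16a and Bckdhb, they were 2, 8, 14, 9 and 5. By chromosome the density ran from 13.1 per Mb on chromosome 3 to 25.8 on chromosome 18, with median pileups between 17 and 20.

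At the 1 kb limit of the rule, peaks lying wholly inside a long gene were compared by their distance to the nearest end of any gene. A peak reaching across the long gene's own start or end is thus not among them. The 265 peaks over 1 and up to 2 kb from a gene end had a median pileup of 21. The 420 excluded peaks that came within 1 kb without touching an end had one of 22.5, and the 186 that overlapped an end had one of 33. The 5 peaks nearest to the limit inside it lay 1004 to 1012 bp from an end with pileups of 12, 21, 76, 12 and 15, and the 5 nearest outside lay 992 to 999 bp from an end with pileups of 22, 15, 35, 12 and 19. The median peak lay 32.3 kb from the nearest gene end, and 2489 peaks (35.8%) lay over 50 kb from one.

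Almost every long gene held at least 1 internal peak, but a small group of genes held a large part of them. At least 1 was found in 903 of 945 long genes (95.6%, 94.0 to 96.8). The median gene held 5 peaks (quartiles 3 and 10) and 14.7 per Mb (quartiles 7.16 and 26.9). The 95 genes with the most peaks held 32.2% of all pairs in 11.7% of the sequence, and 70 genes held 20 or more. The median gap between neighbours in a gene was 17.2 kb, and 18.4% of gaps were under 5 kb. Of the 533 genes of 300 kb or more, 138 had a stretch of 300 kb or more with no peak, the longest being 914 kb.

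The genes with the most internal peaks were of varied function. Etl4 held 46, Msi2, an RNA-binding protein of the Musashi family, held 44, as did Ptprg, and Arhgap26, a GTPase-activating protein, held 37. Dst, a linker of cytoskeletal filaments, held 36, and Gse1, Pakap, an anchor of protein kinase A, and Zfhx3 held 33 each. Gm37013, a predicted gene, and Pde4d, a cyclic AMP phosphodiesterase, held 32 each. Ends of other annotated genes lie within Gm37013, and of its 889 kb only 704962 bp were over 1 kb from every gene end. Msi2 was also among the densest, at 119.5 peaks per Mb (86.8 to 160.4), whereas Pde4d, 1302 kb long, held 24.98 per Mb (17.1 to 35.3). The intervals of Msi2 and Pde4d do not overlap.

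The 10 densest genes with at least 5 peaks, all of them 379 kb long or shorter, reached 107 to 128 peaks per Mb. They were Nhsl1 with 128, Sh3pxd2a, a scaffold of podosomes, with 122, Tns3, a tensin of focal adhesions, with 121, Msi2 with 119.5, and Tead1, a transcription factor of the Hippo pathway, with 115. Clybl, a mitochondrial lyase, followed with 113, Tanc1, a postsynaptic scaffold, with 112, Rnf220, a ubiquitin ligase, with 109, Nav1, a microtubule-associated protein, with 108, and Osbpl10, an oxysterol-binding protein homologue, with 107. Their neighbours in this order did not differ beyond counting error, since the interval of Nhsl1, 84.3 to 186 per Mb, held all of the others. The 23 peaks of Rnf220 had a median pileup of 41, the tallest with 169. In Tead1 the median was 16.5 and in Osbpl10 it was 16.

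Of the 42 long genes without an internal peak, 28 had a start window, and 21 of these had a peak at the start. That share was similar to the 547 of all 707 long genes with a start window. Among the 42, the longest was Skint5 (522 kb), before Myo16, a myosin (481 kb), and Cep112, a centrosomal protein (435 kb). Next came Pcsk5, a proprotein convertase (405 kb), and Cdh8, a classical cadherin (393 kb). A peak stood at the start of Cep112 with a pileup of 77, of Pcsk5 with 56, of Cdh8 with 33 and of Myo16 with 18, while Skint5 had none at either end. A count of 0 allowed up to 9.03 peaks per Mb in Cep112 and up to 7.10 in Skint5 (upper limits of exact 95% intervals). Skint5 belongs to a family of related genes, whose similarity was not examined here. The treatment of reads shared between similar genes is not stated in the sources used here.

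**Figure D2:**
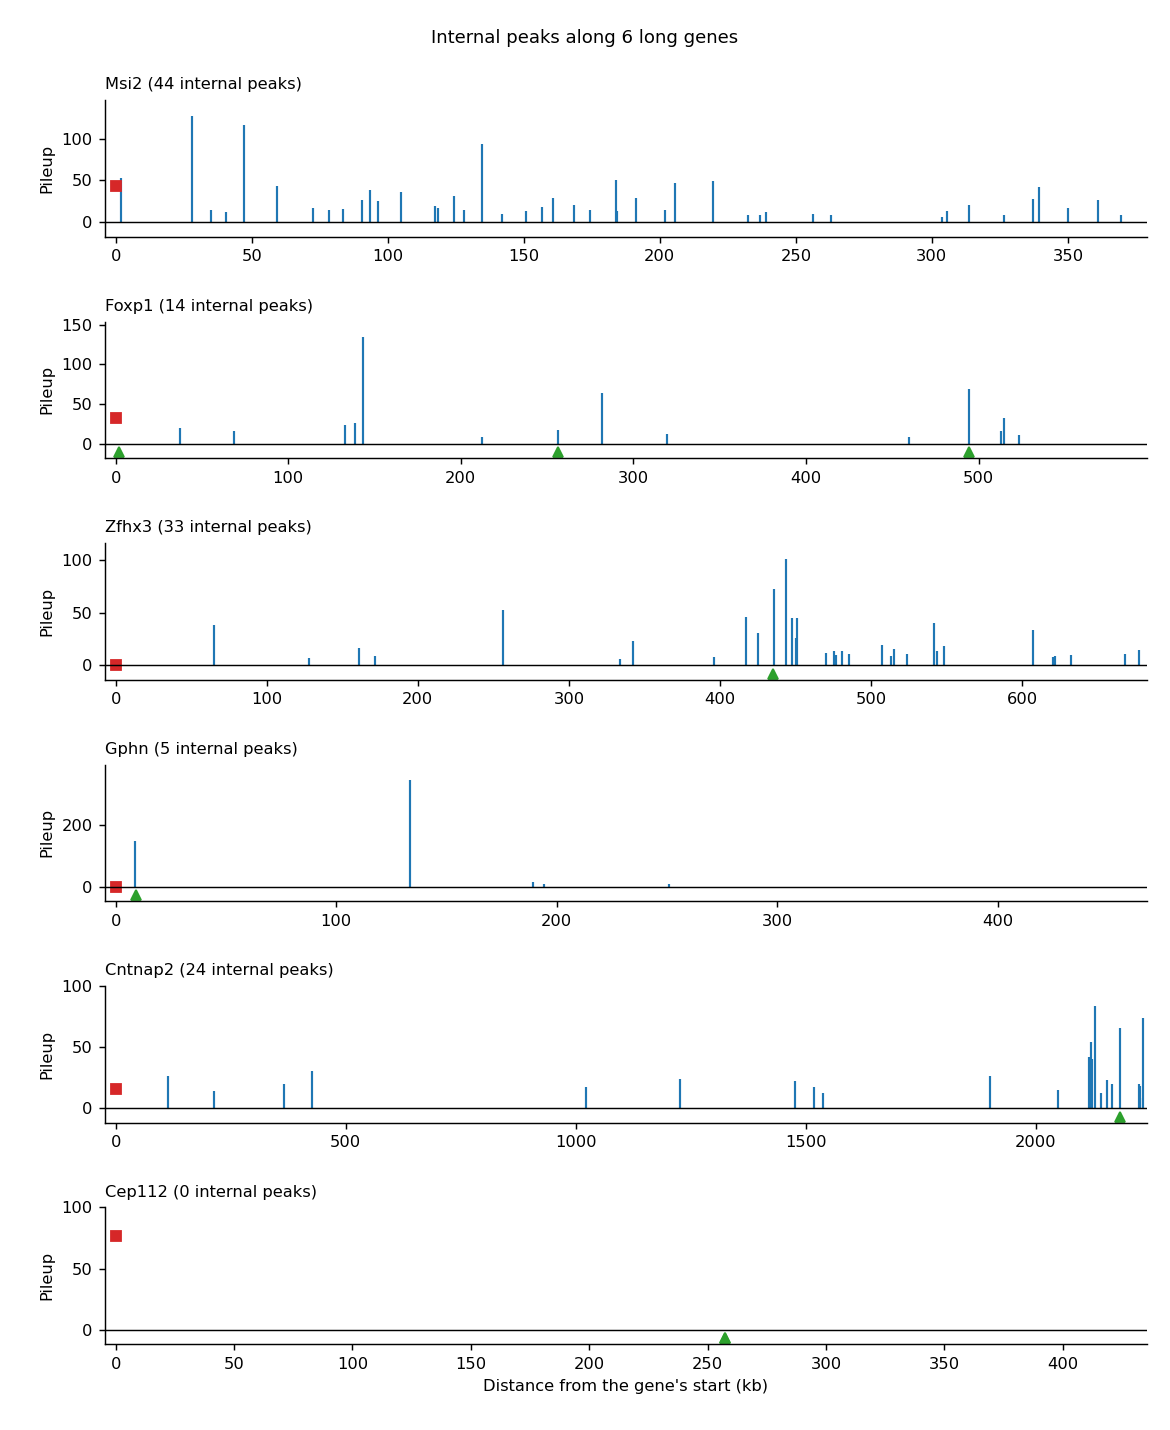
Summit pileup (vertical axes) of every internal peak (blue lines) by distance from the gene's start in kb (horizontal axes) along 6 long genes; green triangles mark annotated internal starts and the red square is the tallest pileup at the gene's start, 0 where there is no peak. Msi2 is filled along its whole length with 44 peaks, the tallest peak of Zfhx3, with 101, lies just behind its internal start, that of Cntnap2, with 84, lies toward its far end, Gphn has no peak at its start and a pileup of 146 at its internal start, and Cep112 has a start peak of 77 and no internal peak.

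By function, long genes of chromatin and RNA regulators were the densest group and those of neuronal adhesion molecules the sparsest. The median gene of 24 chromatin and RNA regulators held 26.6 internal peaks per Mb, and the median of 46 transcription factors held 17.9, beside 14.7 over all 945 long genes. Medians were 16.8 for 37 muscle, cytoskeleton and matrix genes and 15.2 for 60 signalling genes. They were 12.3 for 31 ion channels, 11.8 for 27 synaptic scaffold and vesicle genes, 10.8 for 7 fragile-site genes, 8.41 for 19 axon guidance genes, 7.65 for 22 neurotransmitter receptors, 7.04 for 13 cadherins and 6.05 for 40 neuronal adhesion genes. Of the chromatin and RNA regulators 15 of 24 stood above the median of all long genes, and of the neuronal adhesion genes 9 of 40 did. The groups overlapped widely, with genes from 0 to 119.5 per Mb among chromatin and RNA regulators and from 0 to 37.8 among neuronal adhesion genes. They also differed in length and at their ends. The median length was 354 kb for the chromatin and RNA regulators and 856 kb for the neuronal adhesion genes, and the median pileup at an end was 51 for the chromatin and RNA regulators and 22 for the neuronal adhesion genes. The part of length in the difference was not tested.

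Single genes stood apart from their groups. Among chromatin and RNA regulators, Msi2 with 44 peaks and Smyd3, a SET domain methyltransferase, with 30 had the most, whereas Eya4, a phosphatase and transcriptional coactivator, had none in 248 kb. Among transcription factors, Zfhx3 held 33 and Tead1 26, and Gli3, an effector of Hedgehog signalling, had none despite a peak of 66 at its start. Dst and Macf1, both spectraplakins that link actin and microtubules, held 36 and 25, and Neb, the giant nebulin of skeletal muscle, held none. Among ion channels, Cacna1a, the pore of the P/Q-type calcium channel, held 29 peaks at 101 per Mb (67.8 to 145), and Dpp6, a subunit of potassium channels, held 20.

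The neuronal groups had exceptions of the same kind. The kainate receptor gene Grik3 held 22 peaks at 102 per Mb (64.1 to 155) and Grik4 held 15 at 35.6, whereas Gabrb2, a subunit of GABA receptors, held none. Tenm4, a teneurin, led the neuronal adhesion genes with 25, followed by Cntnap2 with 24, and Cntn1, a contactin, held none. Slit3 and Robo1, a ligand and a receptor of axon guidance, held 21 and 18. Cdh13 held 22 and Cdh4 13, where Cdh8 held none. Magi1 and Dlgap1, scaffolds of cell junctions and synapses, held 29 and 27. Adcy8, a neuronal adenylyl cyclase, was the signalling gene named as having none.

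**Figure D3:**
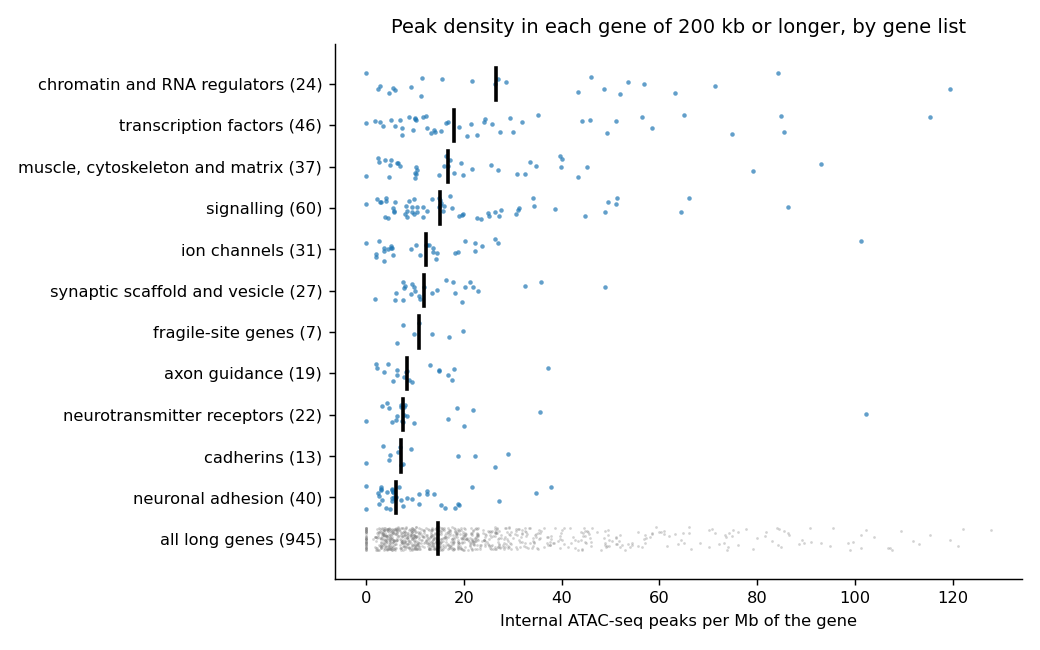
Internal peaks per Mb (horizontal axis) of each long gene (points, spread vertically for visibility) in 11 gene lists and over all 945 long genes; the black bar is the median gene and the number of genes stands in brackets. Medians run from 26.6 for chromatin and RNA regulators to 6.05 for neuronal adhesion genes, beside 14.7 for all long genes, and the points of every list overlap those of the others.

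A set of well-known long genes, several of them fragile sites or neuronal genes, covered a wide range. Csmd1, a complement-domain protein of the brain, held 5 peaks in 1643 kb, 3.09 per Mb (1.00 to 7.21). Their pileups were 127, 11, 11, 11 and 28. Ptprd, a receptor phosphatase of synapses, held 12 in 2271 kb, 5.36 per Mb (2.77 to 9.36), and Lrp1b, a giant lipoprotein receptor, held 13, 6.36 per Mb (3.39 to 10.9). Macrod2, an ADP-ribose hydrolase, held 15 at 7.58 per Mb, Cntnap2 24 at 10.9, Rbfox1 17 at 11.3, and Fhit, a diadenosine hydrolase, 27 at 16.9 (11.1 to 24.6). Auts2, a neurodevelopmental gene whose product joins a Polycomb complex, held 29 at 26.4 per Mb (17.7 to 37.9), above the upper limits of Csmd1, Ptprd and Lrp1b. Immp2l, a mitochondrial peptidase at a fragile site (932 kb), held 18 at 19.8 per Mb, and Wwox, an oxidoreductase at another (913 kb), held 12 peaks, the tallest with a pileup of 21. Rora, a nuclear receptor (735 kb), held 10, and Ttn, which codes for titin of muscle (279 kb), held 5, the tallest with 62. Of the other genes of interest, Esrrb (161 kb) and Jarid2 (191 kb) were shorter than the threshold.

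Long genes had an open end more often than protein-coding genes at large. A peak lay within 1 kb of an end in 741 of 945 (78.4%, 75.7 to 81.0), against 68.1% of all protein-coding genes on chromosomes 1 to 19. Genes with such a peak held 18.95 internal peaks per Mb (18.5 to 19.5), and those without held 14.6 (13.8 to 15.4), a ratio of 1.30 (1.22 to 1.38). Within the length classes the ratio was 1.36, 1.22 and 1.35 in genes of 200 to 300, 300 to 500 and 500 to 1000 kb, but 0.770 (0.650 to 0.914) in genes of 1000 kb and over, where genes with an open end held fewer. Densities were also higher with the height of the peak at the start, which is known for the 707 long genes with a RefSeq start window. They were 12.03 per Mb (11.04 to 13.1) where the start pileup was under 25, 16.3 (15.4 to 17.2) at 25 to 49, 22.4 (21.3 to 23.5) at 50 to 99, and 24.9 (23.3 to 26.7) at 100 or more. Genes with a start peak of under 25 thus held fewer peaks per Mb than the 160 genes with no start peak at all, which held 15.6 per Mb (14.7 to 16.6). Over the 707 genes the Spearman correlation of start pileup with peaks per Mb was 0.204, and that of length with start pileup was -0.108.

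Along the gene, internal peaks were denser close to either end than in the middle. In the 707 genes with a known strand, they numbered 40.8 per Mb (33.6 to 49.1) between 1 and 5 kb from the start, with a median pileup of 25, against 26.6 at 5 to 10 kb and 21.7 to 24.3 in each interval from 10 to 100 kb. Toward the other end the density was 33.9 per Mb (27.4 to 41.5) at 1 to 5 kb, an interval that overlaps that at the start, with a median pileup of 17, and 21.2 to 25.2 in the intervals from 5 to 100 kb. The middle, over 100 kb from both ends, held 13.3 per Mb (12.7 to 13.9), with a median pileup of 18. Since only longer genes reach far into the middle, the same comparison was made within length classes of the 707 genes. The middle held 0.814, 0.762, 0.721 and 0.748 times the density of the outer 100 kb in genes of 200 to 300, 300 to 500, 500 to 1000, and 1000 kb and over, and each interval lay below 1.

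The density close to the start differed between genes with and without a peak at the start itself. The same 1 kb limit enters both sides of this comparison. A peak within 1 kb of the start is not counted as internal and places its gene among those with a start peak. A peak just beyond the limit is counted and does not. The part of this in the difference was not tested. Genes with a start peak held 26.6 internal peaks per Mb between 1 and 5 kb (20.1 to 34.5, 56 peaks), with a median pileup of 22.5, and genes without one held 89.5 (67.4 to 117, 55 peaks), with a median of 40. In genes with a start peak the density 1 to 5 kb from the other end was 35.5 (27.9 to 44.4), above that at the start but with overlapping intervals. An annotated internal start was overlapped by 6 of the 56 peaks in genes with a start peak and by 28 of the 55 in genes without. An internal start was annotated in 192 of the 547 genes with a start peak and in 103 of the 160 genes without. The part of this in the counts of overlapping peaks was not tested. From 10 to 50 kb the order of the densities was the opposite. It was 24.0 and 24.5 per Mb in genes with a start peak against 13.7 and 14.3 in genes without.

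**Figure D4:**
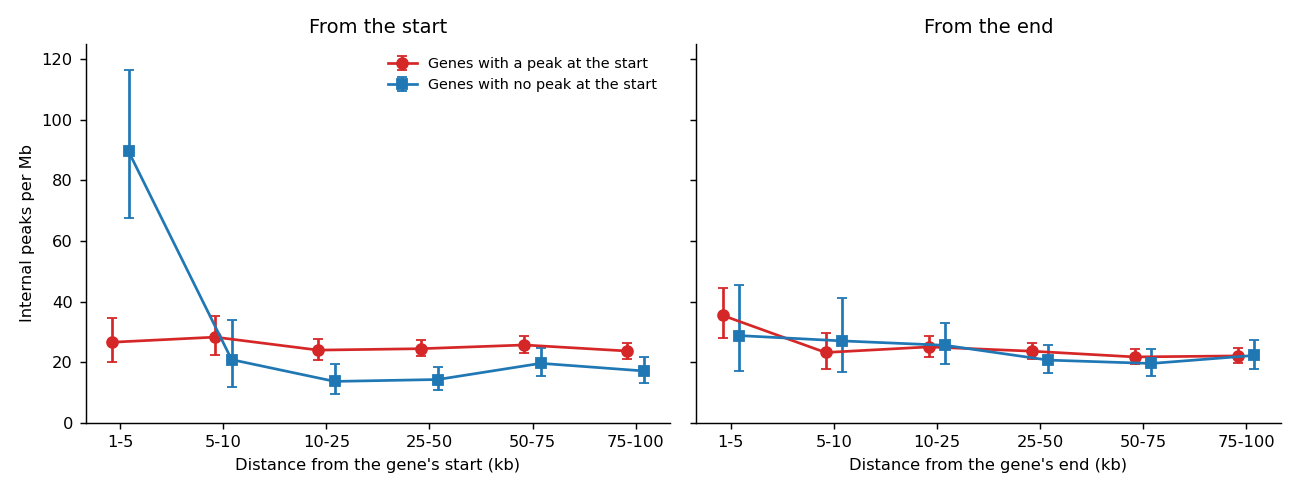
Internal peaks per Mb (vertical axis) by distance in kb from the gene's start (left) and from its other end (right), in the 547 long genes with a peak at the start (red circles) and the 160 without (blue squares); bars are exact Poisson 95% intervals. At 1 to 5 kb from the start, genes with a start peak stand at 26.6 per Mb and genes without at 89.5, and from the other end the groups overlap in every interval.

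Internal starts, the sequences of which were shown above, had taller and wider peaks than the rest of the gene body. RefSeq gave 429 start windows, from 250 bases before to 50 after a start, over 1 kb from every gene end in 295 long genes. A peak overlapped 186 of them (43.4%, 38.6 to 48.2), against 62.1% of all start windows of protein-coding genes and 79.6% (76.1 to 82.8) of the outermost starts of long genes. Internal starts of shorter genes were close to this share, with 47.7% (44.7 to 50.7) in genes of over 50 and under 200 kb and 47.6% (45.1 to 50.0) in genes of 50 kb or less. In 7 windows the peak came within 1 kb of a gene end and is thus not among the 6956. The 167 peaks at an internal start were 3.14% of the 5321 in genes with a start window. Their median pileup was 36 (33 to 45), against 18 (17 to 18) elsewhere in these genes, their median width 812 bp against 418 bp, and 37.1% of them reached a pileup of 50, against 11.2%. Their median fold was 9.99, against 6.54. A wider peak overlaps a start window more readily, and the part of this in the differences of width and height was not tested.

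The share of internal starts with a peak followed the number of CpG dinucleotides in the window. Of windows with 0 to 4 CpGs, 14 of 136 had a peak (10.3%, 5.74 to 16.7). With 5 to 9 CpGs it was 40 of 130 (30.8%, 23.0 to 39.5), with 10 to 19 it was 46 of 71 (64.8%, 52.5 to 75.8), and with 20 or more it was 86 of 92 (93.5%, 86.3 to 97.6). The median window with a peak had 18 CpGs and 63.2% G and C, and the median window without had 4 and 47%. The printed starts show the range: those of Gphn and Foxp1 are rich in capitals, those of Rbfox1 and Ptprg poor, and Cntnap2 and Gse1 run against the trend. Cntnap2 had a peak of 66, with a fold of 16.0 and a width of 817 bp, over a window with 3 CpGs, and Gse1 had none over a window with 17. Starts of Camk1d and Fhit, which are not printed, likewise had peaks, of 45 and 17, over windows with only 5 and 7 CpGs. The printed start of Zfhx3, with a peak of 72 over a window with 21, went with the trend, as did those of Gphn and Foxp1.

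**Figure D5:**
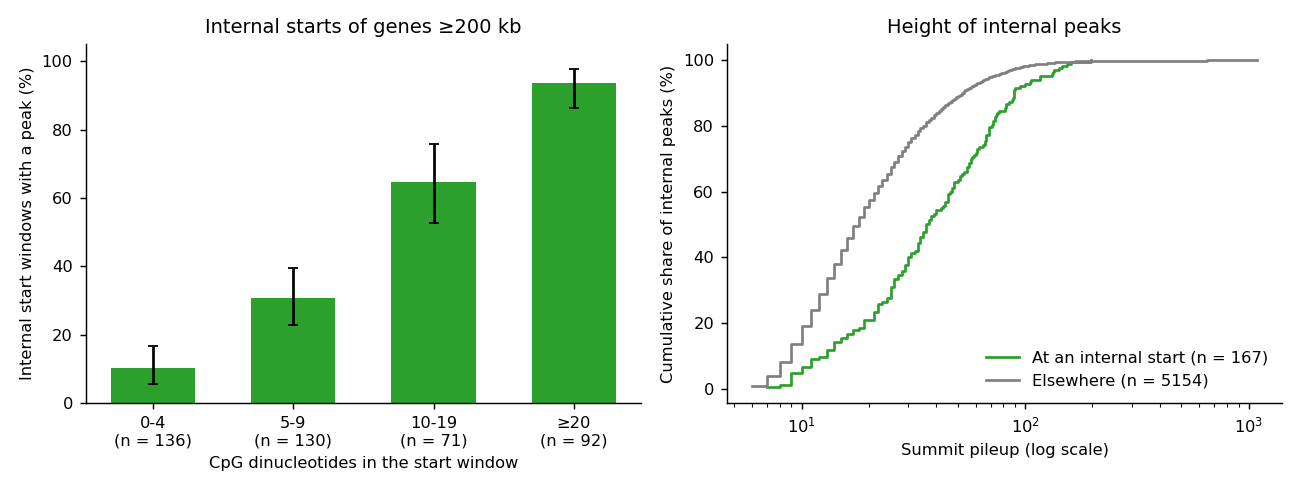
Left, the share of internal start windows of long genes overlapped by a peak (vertical axis, %) by the number of CpG dinucleotides in the window, with exact binomial 95% intervals; right, the cumulative share of internal peaks by summit pileup (log axis) at an internal start and elsewhere. The share is 10.3% with 0 to 4 CpGs and 93.5% with 20 or more, and the curve for peaks at an internal start lies to the right, with a median of 36 against 18.

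Internal starts were more often open in genes whose outermost start was not. Of the 192 genes with an internal start and a peak at the outermost start, 76 had a peak at an internal one (39.6%, 32.6 to 46.9), and of the 103 genes with no peak at the outermost start, 71 did (68.9%, 59.1 to 77.7). The internal windows also differed in CpGs, with a median of 6 in genes with a peak at the outermost start and 11 in genes without. In genes without, the tallest internal starts besides Hdac4, Rps6ka2 and Gphn belonged to Fer, a tyrosine kinase, with 154, Pcca, a subunit of propionyl-CoA carboxylase, with 134, and Clybl with 132. The internal start of Fer lay 1.91 kb from the outermost one, that of Gphn 9.33 kb and that of Hdac4 15.4 kb, whereas Nrxn3, a presynaptic neurexin, had a peak of 88 at a start 1089.8 kb into the gene. By distance the share with a peak was 68.2% (55.6 to 79.1) under 5 kb from the outermost start, 37.1% at 5 to 50 kb, 42.0% at 50 to 200 kb and 36.1% (28.3 to 44.5) over 200 kb. The median number of CpGs in these classes was 21, 6.5, 7 and 6.

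Of 7 short sequence motifs, searched on both strands of the windows, 2 differed between windows with and without a peak beyond their intervals. The letters GGGCGG of the GC box were in 59.1% of internal start windows with a peak (51.7 to 66.3) and in 9.05% of those without (5.76 to 13.4), beside 47.0% of all start windows. The letters TATAAA of the TATA box were in 3.23% with a peak (1.19 to 6.89) and 19.8% without (14.9 to 25.3), beside 12.7% of all. CCAAT was in 33.9% and 35.8%, beside 38.1%, the octamer core ATGCAAA in 7.53% and 6.996%, beside 4.29%, and the E-box CACGTG in 7.53% and 4.53%, beside 7.89%. The ETS letters CCGGAAG were in 3.76% and 1.65%, beside 11.9%, and the NRF1 core CGCATGC in 5.38% and 2.47%, beside 4.51%. For these last 5 the intervals of windows with and without a peak overlapped. GGGCGG and the CpG count share their letters, and a match does not show that a factor was bound. TATAAA holds no G or C, and the median share of G and C was 63.2% in windows with a peak and 47% in those without. The part of base composition in both differences was not tested.

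Peaks at and away from internal starts can be followed in 4 genes. In Zfhx3, which had no peak at its outermost start, the internal start at 435 kb had a pileup of 72 and the tallest peak of the gene, with 101, lay further on at chr8:108722564-108723445. In Foxp1, whose outermost start had 32, the internal start at 494 kb had 69, another internal start at 256 kb had 17, and the tallest peak, with 134 and a width of 859 bp, was at chr6:99378764-99379622, at no annotated start. In Cntnap2, where 595 kb were free of peaks, peaks of 84 (chr6:47188082-47189167), 66 and 74 (chr6:47294175-47294802) lay near the 3′ end, while its outermost start had 16. Camk1d, a calmodulin-dependent kinase, had a peak of 152 at its outermost start and 45 at an internal start 38.8 kb on.

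The 10 tallest peaks reached pileups of 228 to 1091. Of these, 7 were in genes with a start window, and 0 of the 7 lay at an internal start. Of the 100 tallest in such genes 12 did, against 3.14% of all peaks there. A peak in Chl1, a neural adhesion molecule of the L1 family, had a pileup of 1091 (Poisson interval 1027 to 1158) in 234 bp, with a fold of 37.1 over a local background of 28.4. A peak in Kctd16 had 714 in 334 bp, and a peak shared by Cmss1 and Filip1l had 652 in 553 bp. In Peak1 the tallest had 422 in 384 bp, in Gphn 343 in 307 bp, and in Camk1d 342 in 339 bp. All of these were also among the 10 highest by fold, a list led by Cntnap5b with 39.7, and 9 of that list were under 600 bp wide, as were 72.3% of all 6956 peaks. A pair of neighbouring peaks in Myo3a, an unconventional myosin, had 810 and 597 over a background of 121, and their folds were 6.66 and 4.91. The 10 tallest were completed by peaks in Ank3, an ankyrin, with 266 and Zfp978, a zinc finger gene, with 228. The 10 highest by fold were completed by peaks in Ppp1r9a, an actin-binding neurabin, with 27.3, Dnah7b, a dynein heavy chain, with 24.2, and Zbtb20, a zinc finger repressor, with 22.9. Whether these intervals lie in repeated sequence was not tested, and the sources used here do not give filters on such reads.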

How the data were processed

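The authors deposited a narrow peak list called on the 1 library analysed here, with a q threshold of 0.05. It holds an integer score, a fold enrichment, a −log10 p and a −log10 q per peak. The fold is the ratio of summit pileup to local background after 1 is added to each. The score was the authors' −log10 q times 10, rounded down, in 100% of the 77629 peaks. The submitters' processing notes list the peak caller MACS2 2.2.6, the aligner Bowtie2 2.3.4.1, bcl2fastq 2.20.0.422, deepTools 3.2.1 and SAMtools 1.9, with mm10 and GRCm38.p6 as builds. The sources used here do not give the total depth, filters on mapping quality, duplicates and repeats, or any shift for Tn5. The file's own label names no control library.

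The summit pileup was solved from the deposited fold and −log10 p, and came out whole (tolerance 0.01) for 77626 peaks (99.996%), all of those on chromosomes 1 to 19 included. Whether it counts reads or fragments is not stated. Any PCR copies among them would not be independent.

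Gene bodies, biotypes and symbols came from RefSeq for GRCm38.p6. Strand and start windows came from RefSeq promoter windows of 250 bases before to 50 after a start, present for 707 of 945 long genes and for none on chromosome 18. Sequence outside these windows was not used here, so base composition and motifs of the peaks themselves were not computed, and exons and introns were not separated. A start counted as overlapped from 1 bp. Groups of samples were taken from the titles, because 2 treatment labels disagree with them.

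Intervals are exact Poisson, exact binomial, exact conditional (ratios of densities) and order-statistic (medians) 95% intervals. With 1 library no p-value was computed. The long genes named were the 10 with the most peaks, the 10 densest with at least 5, the 5 longest without, the 5 on each side of 200 kb, the 2 with the most peaks and the first without in each of 11 gene lists, the hosts of the 10 tallest peaks and of the 10 highest folds, and 17 fixed genes; genes named for an internal start were chosen after their values were seen. Of the genes so chosen, 1 is not reported here. The peaks, lists and settings were chosen with earlier results of these data known. Functions were tested on simulated data. Computations ran in Python 3.11.15 with scipy 1.17.1, pandas 2.3.3 and numpy 2.4.6, and plots used matplotlib 3.10.9.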

Additional observations from a re-analysis of the deposited data

How the results depend on the processing

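The 7 results named below were recomputed under other settings. The density ratio to genes of 50 kb or less stayed below 1, and that of genes with to genes without an open end stayed above 1. The order of the median widths did not hold. It was 429 bp against 431 bp in genes of 50 kb or less on the main setting, but 593 against 539 bp with a pileup of at least 20. The comparison with nearby intergenic sequence ranged from 0.866 to 1.17 times. Results by gene list, length class, position, CpG count, motif and start height were computed on 1 setting. The number of internal peaks was 4335 with genes of 300 kb or more and 3191 with a pileup of at least 20. The density relative to genes of 50 kb or less was 0.424 and 0.313 times with long genes of 150 and 300 kb or more, 0.366 over 5 kb from gene ends, 0.304 with a pileup of at least 20, 0.360 by summit position and also against genes of 20 kb or less, and 0.439 over the whole gene span. The median pileup was 23 and the median width 490 bp at a −log10 q of at least 5, and 33 and 593 bp with a pileup of at least 20. The share of long genes with a peak was 93.6% and 96.8% at 150 and 300 kb, 94.0% over 5 kb from ends, 93.7% at a −log10 q of at least 5 and 83.6% with a pileup of at least 20. The density ratio of genes with to genes without an open end was 1.21 at 300 kb, 1.43 with a pileup of at least 20 and 1.18 without the highest folds and widest peaks. The share of internal starts with a peak was 34.7% with a pileup of at least 20 and 25.4% with the summit in the window, both settings chosen after seeing the data. The stricter settings leave fewer peaks by construction, and other causes were not tested. No paired analysis was possible because each group has 1 sample. Unknown depth limits what a missing peak says, and a pileup of 5 or less was below the detection limit.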

Other observations

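Long genes of the X chromosome, which is outside the rule used above, were sparser in internal peaks than those of any of the chromosomes 1 to 19. The 45 long genes there held 123 peaks over 1 kb from gene ends, 6.25 per Mb (exact Poisson 95% interval 5.20 to 7.46), against 13.1 per Mb on chromosome 3, the sparsest of the others. The density over the X chromosome as a whole is not given here, so the lower value is not shown to be particular to its long genes. Of the 45 genes, 9 held none. The peaks that were listed had a median pileup of 20, against 18 on the other chromosomes. Dmd, which codes for dystrophin of muscle, held 17 peaks in 2.39 Mb. The number of X chromosomes in these cells is not stated in the labels, and its part in these values was not tested.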
